A study of Mus musculus with 7 samples.

Results

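Argonaute crosslinks were read in the 3 mouse genes of the Tnrc6 family, Tnrc6a, Tnrc6b and Tnrc6c. Crosslink positions and deposited miR-216 sites were assigned to these genes on the same strand with the GENCODE M21 annotation of mm10, and 60 of 14054 positions fell in them. Tnrc6a held 26 positions, Tnrc6b 23 and Tnrc6c 11, and the family made up 3 of 4942 genes with a crosslink. The 3 genes were chosen by values measured here, namely their crosslink positions, scores and the seeds beside them, so those values are a description and carry no test.

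PAR-CLIP joins RNA that carries 4-thiouridine to bound proteins with ultraviolet light, and an antibody then recovers a chosen protein together with its RNA. Explants of whole retina from newborn CD-1 mice (postnatal day 0) were kept for 24 h in medium with 0.1 mM 4-thiouridine and 20% horse serum, then exposed to 365 nm light at about 300 mJ/cm2. Each library pooled 6 retinas. The 5 Argonaute libraries were made with the antibody 2A8 and the 2 control libraries with a mouse IgG1 isotype control. The score of a position is the number of Argonaute libraries that contain it, from 2 to 5. Values of single libraries and of the IgG controls were not analysed here, so no value below is corrected for control background. Read depth is unknown, and no difference was set against replicate spread. Fewer cells of a type and less RNA per cell cannot be told apart in whole retina.

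Of 24 genes that mark retinal cells or their progenitors, 20 had a crosslink, beside 21.6% of all protein-coding genes in the annotation. The genes listed for pigment epithelium (0 of 4), microglia (0 of 3) and lens (0 of 2) had none, while Kdr was the 1 of 3 vessel genes and Pdgfra the 1 of 2 astrocyte genes with any. These other lists are too short to be set apart from that share. Since a position is listed only if 2 or more libraries contain it, RNAs present at high level are more likely to appear.

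TNRC6 proteins, also called GW182 proteins, are the partners through which Argonaute silences mRNAs. Their glycine-tryptophan repeats bind Argonaute, and their C-terminal part recruits poly(A)-binding protein and the PAN2-PAN3 and CCR4-NOT deadenylases, which shorten the poly(A) tail. A microRNA finds its targets mainly through its seed, bases 2 to 8, and in PAR-CLIP the crosslinked base is a T that usually lies just before the stretch that pairs with the seed. A crosslink in a Tnrc6 mRNA therefore marks contact of Argonaute with the mRNA of its own partner.

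The mature microRNAs whose seeds recur below are shown 5′ to 3′ with the seed in capitals, as RefSeq gives them (build GRCm38.p6). They let each site be read against its microRNA, since a site is the reverse complement of the seed.
miR-19b-3p: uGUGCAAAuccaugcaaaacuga
miR-130a-3p: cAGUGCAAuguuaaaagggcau
miR-26a-5p: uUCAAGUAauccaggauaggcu
miR-30a-5p: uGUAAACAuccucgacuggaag
miR-17-5p: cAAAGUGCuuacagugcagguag
miR-153-3p: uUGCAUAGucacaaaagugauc
miR-9-5p: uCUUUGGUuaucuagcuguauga
miR-181a-5p: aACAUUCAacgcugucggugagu

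The site with a listed crosslink in all 3 mRNAs lies in the 3′ UTR and is shown first. Capitals mark the 8 bases in which a 7mer for miR-19 and a 7mer for miR-130 overlap, and coordinates (mm10, plus strand) give those bases.
Tnrc6a, chr7:123193324-123193331: cttttaccTTTGCACTgagtgatgttctcc
Tnrc6b, chr15:80929888-80929895: taactttgTTTGCACTgggtgtgtttccgt
Tnrc6c, chr11:117761796-117761803: cttctaacTTTGCACTgaggtgtctctgcc
The crosslinked base was the second T of the capitals in every gene, at 123193325, 80929889 and 117761797. The crosslink was found in 3 libraries in Tnrc6a, in 5 in Tnrc6b and in 4 in Tnrc6c. It is the first base of the miR-130 match, and the miR-19 match starts 1 nt before it. A match for miR-148a-3p and miR-152-3p, which were not on the list of families searched, starts 1 nt after it, as an 8mer in Tnrc6a and Tnrc6c and a 7mer in Tnrc6b.

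The next 2 sets of sites, for miR-26 and miR-30, show where the listed crosslinks of the genes differed. Capitals mark the bases that match the seed, with a trailing A where the match is an 8mer.
Tnrc6a miR-26, chr7:123193101-123193108: cagtttgaaTACTTGAAtcatgcaggccaa
Tnrc6b miR-26, chr15:80929714-80929721: ctcttgaaaTACTTGAAtcatgaacgccaa
Tnrc6c miR-26, chr11:117761433-117761440: acatgcaaaTACTTGAAcccagcaggccaa
Tnrc6a miR-30, chr7:123193385-123193391: cagtgtagaTGTTTACtcaagggtgttctc
Tnrc6a second miR-30, chr7:123193712-123193718: gaaaaaaaaTGTTTACtcttccatcattta
Tnrc6c miR-30, chr11:117761887-117761893: atgtgtaaaTGTTTACtcaaggactctgtt
The miR-26 8mer of Tnrc6b was crosslinked at its first base (80929714) in all 5 libraries. In Tnrc6a the crosslink there lay 6 nt before the match (123193095) and was found in 2 libraries, and in Tnrc6c the same 8mer had no listed crosslink in the 30 nt shown. Of 4 miR-30 matches in the 3′ UTR of Tnrc6a, the 2 shown were crosslinked at their first base, in 2 and 3 libraries. Of 2 in Tnrc6c, the 1 shown was, in 4 libraries. The first miR-30 window of Tnrc6a and that of Tnrc6c had 22 of 30 bases in common around the crosslink, with an unbroken run of 14.

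Tnrc6a (ENSMUSG00000052707.8, chromosome 7, 123123885 to 123195296, plus strand) ranked 9 of 4942 genes by number of crosslinks. Its principal transcript, ENSMUST00000094053.6, has 24 exons, 5688 nt of coding sequence and a 3′ UTR of 2345 nt. Tnrc6b (ENSMUSG00000047888.10, chromosome 15, 80711313 to 80941085, plus strand) ranked 13. Its transcript ENSMUST00000067689.8 has 25 exons, 5430 nt of coding sequence and a 3′ UTR of 11609 nt. Tnrc6c (ENSMUSG00000025571.13, chromosome 11, 117654289 to 117763439, plus strand) ranked 101. Its transcript ENSMUST00000106344.7 has 22 exons, 5700 nt of coding sequence and a 3′ UTR of 2588 nt. The median gene with any crosslink had 2, and 122 genes had at least as many as Tnrc6c.

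Most positions lay in 3′ UTRs. The 3′ UTR held 37 of the 60 positions (61.7%, exact Clopper-Pearson 95% interval 48.2 to 73.9), beside 52.2% of all crosslinks. By gene it held 15 of 26 in Tnrc6a, 15 of 23 in Tnrc6b and 7 of 11 in Tnrc6c, so the shares ran from 57.7% to 65.2% with wide, overlapping intervals. Coding sequence held 18 of 60 (30%, 18.8 to 43.2), beside 20.8% of all crosslinks. It held 10 positions in Tnrc6a and 4 in each of the other genes. The remaining 5 positions were 3 in a noncoding exon of Tnrc6b, 1 in an intron of Tnrc6b (80919532) and 1 in an intron of Tnrc6a (123128944). These intervals cover counting error only, and neighbouring positions in 1 mRNA are not independent.

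**Figure D1:**
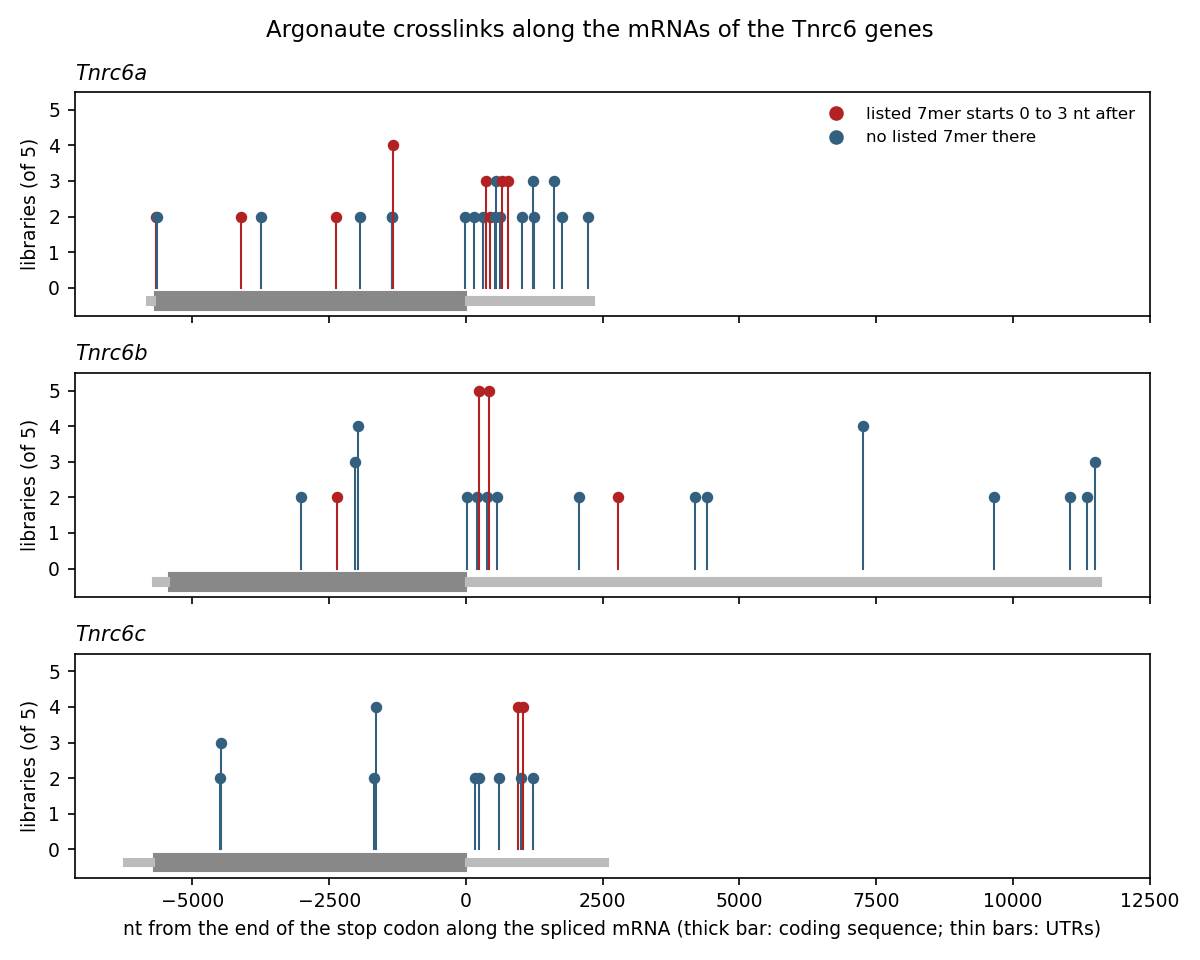
Crosslinks along the spliced mRNA of each gene. The x axis gives nt from the end of the stop codon, the y axis the number of Argonaute libraries (of 5) with the crosslink; thick bars are coding sequence and thin bars UTRs, and red marks crosslinks with a listed 7mer match starting 0 to 3 nt after them. The 55 positions in coding sequence and 3′ UTRs are drawn, and the positions of Tnrc6b spread over a 3′ UTR of 11609 nt while those of Tnrc6a and Tnrc6c end at 2236 and 1217 nt.

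Per length, Tnrc6a had the most positions of the 3 genes in both parts of the mRNA, but in coding sequence this rested on positions in 2 libraries. Its 3′ UTR had 6.4 positions per kb, rank 80 of 3196 genes with a 3′ UTR crosslink, whose median was 0.885. Tnrc6c had 2.7 per kb (rank 392) and Tnrc6b, with the same number of positions as Tnrc6a, 1.29 per kb (rank 1101). In coding sequence Tnrc6a had 1.76 per kb, rank 235 of 1760 genes with a median of 0.671. Tnrc6b had 0.737 and Tnrc6c 0.702 per kb, both close to that median. With positions in 3 or more libraries only, Tnrc6a had 1 in its coding sequence and the others 2 each, so the order turned. RNA level was not measured, and its part in these densities was not tested.

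**Figure D2:**
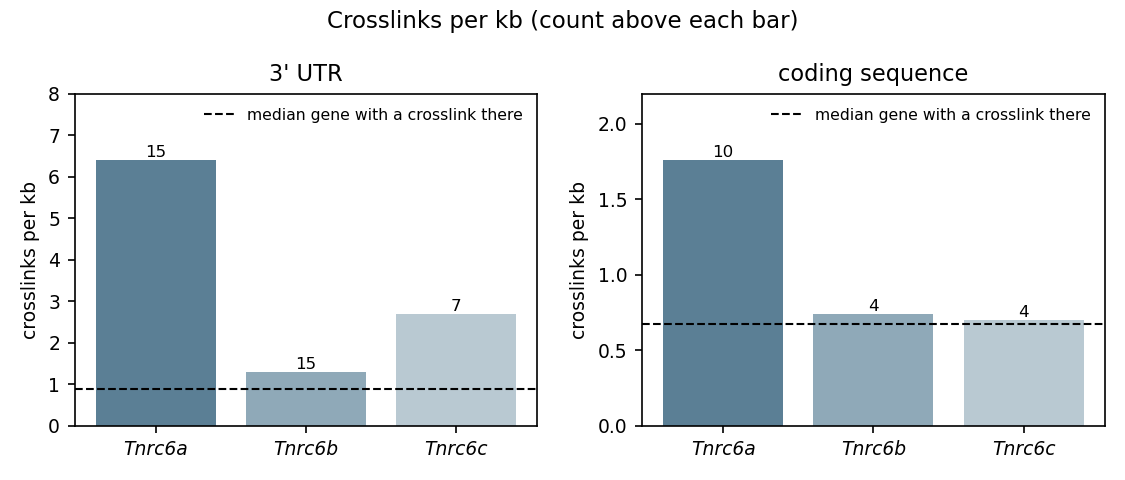
Crosslinks per kb of 3′ UTR (left) and of coding sequence (right) in the 3 genes, with the number of positions above each bar and a dashed line at the median gene with a crosslink in that part of the mRNA. Tnrc6a is highest in both panels, at 6.4 and 1.76 per kb.

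The 3′ UTR positions were spread differently along 3′ UTRs of different length. In Tnrc6a, whose 3′ UTR is 2345 nt long, they ran from 144 to 2236 nt after the stop codon with a median of 667, and 9 of 15 lay in the first 1000 nt. In Tnrc6c they ran from 170 to 1217 nt with a median of 946, and 4 of 7 lay in the first 1000 nt. In Tnrc6b they ran from 18 to 11502 nt with a median of 2788. In the first 500 nt the counts were 4, 5 and 2 for Tnrc6a, Tnrc6b and Tnrc6c. Tnrc6b had 6 of 15 in the first 1000 nt, so per kb of this stretch the counts were 9, 6 and 4 for Tnrc6a, Tnrc6b and Tnrc6c. The other positions of Tnrc6b were sparse, and 8 lay more than 2400 nt after the stop codon.

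The score showed how often the libraries shared a position. Of the 60, 19 (31.7%, 20.3 to 45) were found in 3 or more libraries, beside 25.6% of all crosslinks. These were 7 of 26 in Tnrc6a, 8 of 23 in Tnrc6b and 4 of 11 in Tnrc6c. In 3′ UTRs they were 12 of 37 (32.4%) beside 32.9% of all 3′ UTR crosslinks, and in coding sequence 5 of 18 (27.8%) beside 21.7%. The few highest scores were spread unevenly over the genes. Tnrc6a, with the most positions, had 1 found in 4 libraries and none in 5, whereas Tnrc6b had 2 in 4 and 2 in 5, and Tnrc6c had 3 in 4 and none in 5. Together 8 of 60 positions were found in 4 or more libraries, beside 9.81% of all crosslinks, and 2 in all 5, beside 3.47%. Of the 8, 5 were among the 37 in 3′ UTRs, beside 13.9% of all 3′ UTR crosslinks, and 3 were among the 18 in coding sequence, beside 7.08%. Those 2 were the miR-26 and overlapping miR-19 and miR-130 sites of Tnrc6b printed above, 175 nt apart.

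A match to the seed was then looked for just after each crosslink. Of 37 microRNA families listed, 34 had a mature sequence in the table used, and miR-124, miR-145 and miR-122 were not searched. A 7mer match (7mer-m8, the reverse complement of seed bases 2 to 8) starting 0 to 3 nt after the crosslink followed 15 of 58 exonic positions (25.9%, 15.3 to 39), beside 23.8% of all exonic crosslinks. It followed 8 of 25 in Tnrc6a, 5 of 22 in Tnrc6b and 2 of 11 in Tnrc6c. In 3′ UTRs it followed 9 of 37 (24.3%) beside 26.7% over all genes, and in coding sequence 5 of 18 (27.8%) beside 19.2%. By score it followed 9 of 19 in 3 or more libraries (47.4%, 24.4 to 71.1) and 6 of 39 in 2 libraries (15.4%, 5.86 to 30.5), with intervals that overlap. Over all genes the same shares were 36.8% (33.2% in 3 libraries, 41% in 4 and 44.1% in 5) and 18.3%. With any mature arm numbered below 400 as a candidate, 21 of 58 positions (36.2%) had a match, beside 33.5% of all exonic crosslinks.

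**Figure D3:**
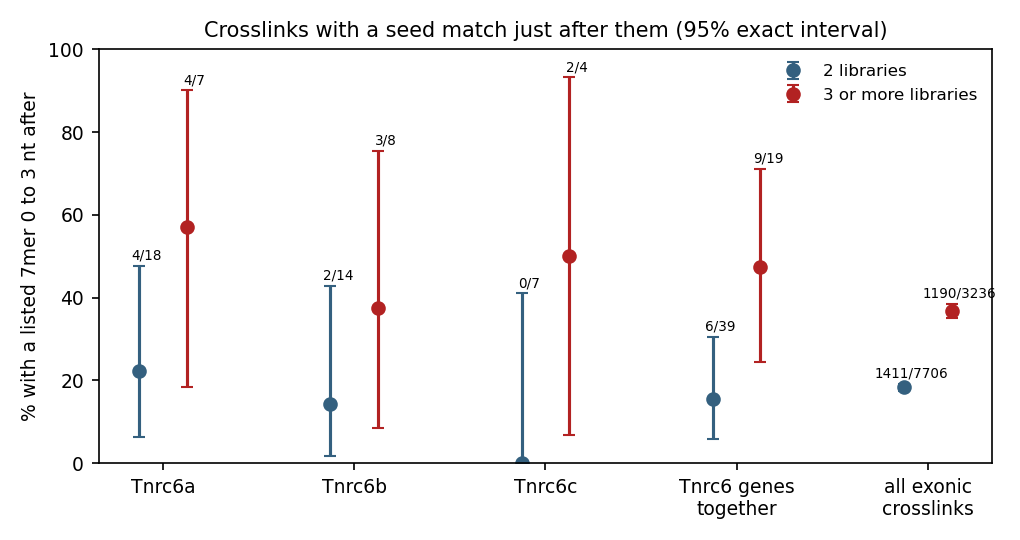
Percent of exonic crosslinks with a listed 7mer starting 0 to 3 nt after them, for positions in 2 libraries (blue) and in 3 or more (red). Bars are exact 95% intervals and the fractions above them are counts; the 3 genes together run from 15.4% in 2 libraries to 47.4% in 3 or more, and every interval of a single gene is wide.

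In the 3′ UTRs, matches of 5 families, picked after the matches were seen, followed each other in a like order. After the stop codon came an 8mer for miR-26, an 8mer for miR-23, the overlapping miR-19 and miR-130 matches, and then a match for miR-30. They started at 150, 177, 374 and 434 nt in Tnrc6a, and at 582, 609, 946 and 1036 nt in Tnrc6c. In Tnrc6b the first 3 started at 238, 270 and 413 nt, and the next miR-30 match lay at 2709 nt with no listed crosslink just before it. Other listed matches lay before this row, namely a miR-27 7mer at 21 nt in Tnrc6a and a miR-17 7mer at 290 nt in Tnrc6c. In Tnrc6b 5 matches of other families lay between 413 and 2709 nt. The miR-26 and miR-23 matches were 27 nt apart in Tnrc6a and Tnrc6c and 32 nt apart in Tnrc6b.

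The listed crosslinks were spread unevenly along this row, but a match without one may still be bound. The miR-130 match had a crosslink at its first base in all 3 genes, the miR-26 match in Tnrc6b only, and the miR-30 match of this row in Tnrc6a and Tnrc6c. None of the 3 miR-23 matches had a crosslink 0 to 3 nt before it, though 1 position of Tnrc6c (117761454, 2 libraries) lay 6 nt before its miR-23 match. Every exonic crosslink was on a T, and the bases 0 to 3 nt before the miR-23 match hold no T in Tnrc6b and Tnrc6c. In those genes the absence was therefore fixed by sequence. Over all genes with a 3′ UTR crosslink, a crosslink preceded 20% of miR-26 matches, 16.2% of miR-130 matches, 12.5% of miR-30 matches and 1.73% of miR-23 matches. Other miR-30 8mers had no crosslink just before them, at 722 and 1521 nt in Tnrc6a, at 1338 nt in Tnrc6c, and at 9526 and 10462 nt in Tnrc6b.

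**Figure D4:**
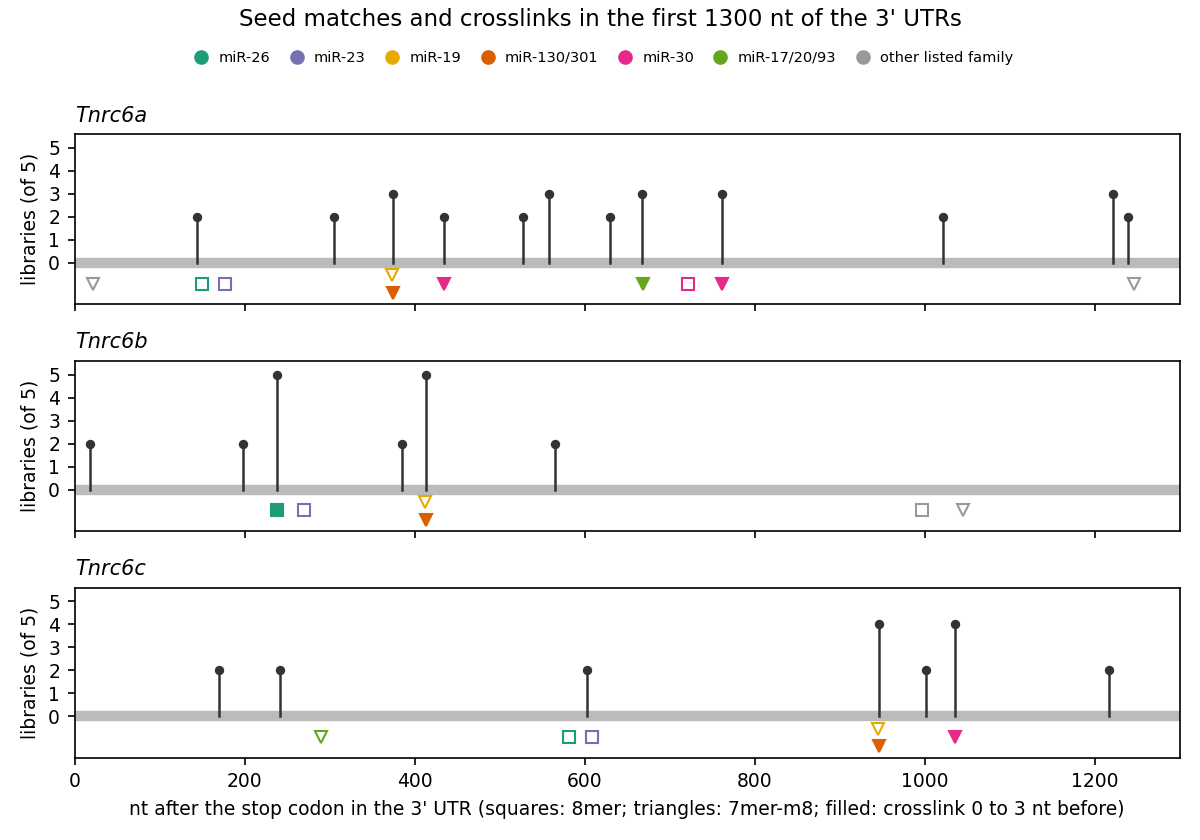
Crosslinks (stems, height is the number of Argonaute libraries) and listed seed matches (symbols below) in the first 1300 nt of each 3′ UTR, with nt after the stop codon on the x axis. Squares are 8mers, triangles 7mers, and filled symbols have a crosslink 0 to 3 nt before them; the orange miR-130 match is filled in all 3 genes, at 374, 413 and 946 nt.

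The gene with the most matches in its 3′ UTR did not have the most with a crosslink. Tnrc6b held 43 7mers of the families searched in its 3′ UTR, and 3 had a crosslink just before them (6.98%, 1.46 to 19.1). Over all genes with a 3′ UTR crosslink, 6.75% of 28218 matches had one. Tnrc6a held 13 with 4 crosslinked (30.8%, 9.09 to 61.4), and Tnrc6c 10 with 2 crosslinked (20%, 2.52 to 55.6). Besides the miR-26 and miR-130 matches, the crosslinked match of Tnrc6b was an 8mer for miR-204, a microRNA of retina and pigment epithelium, 2789 nt after the stop codon, with a crosslink at 80932264 in 2 libraries. Besides its miR-130 and miR-30 matches, the crosslinked match of Tnrc6a was a 7mer for the miR-17 family, from a cluster active in dividing cells. A noncoding exon of Tnrc6b held an 8mer of the same family. These 3 sites are shown because they complete the matches of the searched families with a crosslink outside coding sequence, with matched bases in capitals. The last of them is spliced sequence that runs into the next exon after its match.
Tnrc6a miR-17, chr7:123193619-123193625: acgggccctGCACTTTgaacaggctttcca
Tnrc6b miR-204, chr15:80932265-80932272: cataagcttAAAGGGAAaaaaactaaaaac
Tnrc6b noncoding exon, miR-17: taagcactgctGCACTTTAtgagagagaag
Each was crosslinked at the base before the capitals, in 3 libraries in Tnrc6a (123193618) and in 3 in the noncoding exon (80798792). That exon is exon 1 of ENSMUST00000228071.1, a transcript annotated as retaining an intron, and it lies in an intron of the principal transcript. It held 3 positions, at 80798750, 80798776 and 80798792, which lay 140, 166 and 182 nt after a RefSeq transcription start at 80798610.

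Recurrent positions without a listed 7mer just after them also occurred, where listed means the 34 families searched. Matches for miR-124, miR-145 and miR-122 were not looked for, so a position counted here may have one. The position of Tnrc6b at 80936738, 7262 nt after the stop codon, was found in 4 libraries. Its nearest 7mer of the families searched, for miR-181, started 4 nt before it. Whether a miR-124 7mer lay just after it was not tested. In Tnrc6c a position at codon 1353 (117747247) was found in 4 libraries with no listed 7mer within 20 nt. Of the 19 exonic positions found in 3 or more libraries, 9 (47.4%) had a listed 7mer starting 0 to 3 nt after them. Over all genes 36.8% of such crosslinks had one. The other 10 of the 19 positions had none there. Shorter listed matches, which pair with seed bases 2 to 7, lay there at 80889110 (miR-9), 123193509 (miR-19), 123194555 (miR-15/16) and 117721757 (miR-25/92). The last of these positions, at codon 407 of Tnrc6c (3 libraries), was also followed 1 nt later by an 8mer for miR-33-5p, which was not on the list.

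In coding sequence, 2 pairs of crosslinks lay at the same place in Tnrc6a and Tnrc6b. The encoded proteins were 44.2% identical between Tnrc6a and Tnrc6b over 1662 aligned residues, 48.8% between Tnrc6a and Tnrc6c and 43.8% between Tnrc6b and Tnrc6c. Of the 18 coding crosslinks, 4 had a crosslink within 10 aligned codons in another member. These 4 are the pair at an 8mer for miR-153, a brain microRNA, and the pair at a shorter match (7mer-A1, seed bases 2 to 7 and an A) for miR-9, a microRNA of neural progenitors. The aligned stretch of Tnrc6c is shown with each because it holds the same match and no listed crosslink.
Tnrc6a miR-153, chr7:123174153-123174160: ggcccaaatCTATGCAAgatggctggtgtg
Tnrc6b miR-153, chr15:80884216-80884223: attccaaatCTATGCAAgacggctgggggg
Tnrc6c miR-153, chr11:117733619-117733626: cttccaaatCTATGCAAgaaggctggggca
Tnrc6a miR-9, chr7:123179819-123179825: cctcagatttCCAAAGAgtcttccatggag
Tnrc6b miR-9, chr15:80889112-80889118: ccacctaattCCAAAGActtgggaaccaca
Tnrc6c miR-9, chr11:117739969-117739975: ccaccaatctCCAAAGAgtcttccatggac
At the miR-153 match the crosslink was the T just before the capitals in both genes, at codon 1106 of Tnrc6a and codon 1026 of Tnrc6b, each in 2 libraries. Over all genes 47 exonic crosslinks preceded a miR-153 7mer, of which 5 lay in coding sequence, and 2 of those 5 are this pair. At the miR-9 match the crosslinks lay 1 nt apart in the alignment, at codon 1250 of Tnrc6a in 2 libraries and at codon 1152 of Tnrc6b in 4.

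The other coding matches belonged to Tnrc6a, and the bases that pair with the seed are again in capitals.
Tnrc6a miR-9, chr7:123124687-123124694: gctaaagctACCAAAGAcgtagagagaaat
Tnrc6a miR-128 and miR-27, chr7:123170575-123170583: caatggtgaCACTGTGAAtgcaactctaat
Tnrc6a miR-181, chr7:123184171-123184178: actcaaactTGAATGTAaatatggatatga
The miR-181 8mer followed a crosslink at codon 1454 in 4 libraries, the highest score in Tnrc6a. Tnrc6c held a miR-181 7mer at the aligned codon 1484 with no listed crosslink. The miR-9 8mer near the start codon (crosslink at codon 8) and the overlapping 8mers for miR-128 and miR-27 (crosslink at codon 528) had their crosslinks in 2 libraries. The latter match was also present in Tnrc6c at codon 481, with no listed crosslink. There the bases 0 to 3 nt before it hold no T, so none could be listed, and no difference between the genes can be read from this. Outside these sites, 5 of the 10 coding positions of Tnrc6a, 2 of the 4 of Tnrc6b and all 4 of Tnrc6c had neither a listed 7mer nor a miR-9 7mer-A1 starting 0 to 3 nt after them.

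Reads from similar paralog sequence could in principle be placed in the wrong gene, so windows of 30 nt were compared. None of the 58 exonic windows (0 of 58) occurred whole in transcripts of another gene. Read length and the mismatches allowed in mapping are not known here, so whether reads were misplaced was not tested. Against the best place in each paralog, the windows had a median of 18 of 30 bases in common (range 16 to 26 over 116 comparisons), and the longest unbroken run with the crosslink in it was 18 nt, at the miR-153 match of Tnrc6b and Tnrc6c. Where both genes had a crosslink, the run was 16 nt at the miR-153 match of Tnrc6a and Tnrc6b (23 of 30 bases). At the miR-30 match of Tnrc6a and Tnrc6c it was 14 nt. All 58 exonic positions were on a T, the base that 4-thiouridine replaces. So were all 10989 exonic crosslinks read, so the base cannot tell whether reads were misplaced. The positions of Tnrc6a at 123124686, 123124709 and 123128944 also lie in an intron of the noncoding gene Gm45846 on the same strand, and their gene of origin cannot be told apart.

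The miR-216 table held 1 site in the family, among 394 distinct sites. It lay in the 3′ UTR of Tnrc6a at chr7:123194719-123194724 (mm10, plus strand), 1768 nt after the stop codon, was named for miR-216a-5p and had a score of 2. It is shown with its 6 matched bases in capitals, beside the mature microRNA. These pair with bases 3 to 8 of the microRNA and leave its base 2 unpaired.
Tnrc6a miR-216a: tgtccacaatcacccTGAGATaatg
miR-216a-5p: uAAUCUCAgcuggcaacuguga
Its crosslink, at 123194706, lay 13 nt before the match, farther than the 0 to 3 nt used above, and a 7mer-A1 for miR-219 started 0 to 3 nt after that crosslink. Tnrc6b had 2 matches for miR-216b in its 3′ UTR, at 7378 and 7546 nt, without a crosslink just before them.

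The genes most like each member in how many crosslinks lay in each part of the mRNA, split by score, were not its paralogs. Likeness was the distance between square roots of the counts. For Tnrc6a they were Map1b (distance 1.17), Prdm1 (1.25) and Ubn2 (1.41), with Tnrc6c at rank 36 and Tnrc6b at rank 52. For Tnrc6b they were Phip (1.84), Kmt2c (2.1) and Arrdc3 (2.11), with Tnrc6c at rank 13 and Tnrc6a at rank 19. For Tnrc6c they were Wnk1 (0.414), Sos1 (0.477) and Ywhae (0.522), with Tnrc6a at rank 760 and Tnrc6b at rank 781.

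Other genes of the microRNA pathway were read for comparison. Of 54 listed genes, 41 had a crosslink, beside 21.6% of all protein-coding genes, which include many not expressed in retina. They held 179 positions, of which 114 were in 3′ UTRs and 47 in coding sequence, beside 52.2% and 20.8% of all crosslinks. Of the 179, 61 were found in 3 or more libraries, beside 25.6% of all crosslinks and 32.9% of 3′ UTR crosslinks. Tnrc6a and Tnrc6b each held more positions than any of the 54, but these counts take no account of length. Per kb of 3′ UTR, Btg2 (8.19) stood above both Tnrc6a (6.4) and Tnrc6b (1.29), Dicer1 (2.6) stood between them, and Ago2 (0.904) stood below both.

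The Argonautes, which carry the microRNA, all had crosslinks (4 of 4 genes, 22 positions), with the highest count in Ago2 (11 positions, 0.904 per kb of 3′ UTR). Ago1, named here for comparison, had 5 positions but 1.11 per kb. Among processing factors 6 of 10 had any, and Dicer1, which cuts the precursor hairpin, had 20, split evenly into 10 in the 3′ UTR and 10 in coding sequence. Of the poly(A)-binding group 4 of 5 had crosslinks, with 7 in Paip2, an inhibitor of poly(A)-binding protein. In the CCR4-NOT group, which TNRC6 proteins recruit, 12 of 15 had 60 positions. Btg2, an antiproliferative partner of the deadenylase, had 18, all in the 3′ UTR (8.19 per kb), and Cnot6, Cnot6l and Btg2 were the 3 listed genes with a miR-216 site. Both PAN genes had crosslinks, 3 in all, with 2 in Pan3. Of the decapping and repression group 10 of 13 had crosslinks, with 8 in the helicase Ddx6. Of other partners of the silencing complex 3 of 5 had any, with 4 each in Trim71, a ubiquitin ligase family protein of early development, and Fmr1, an RNA-binding protein.

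**Figure D5:**
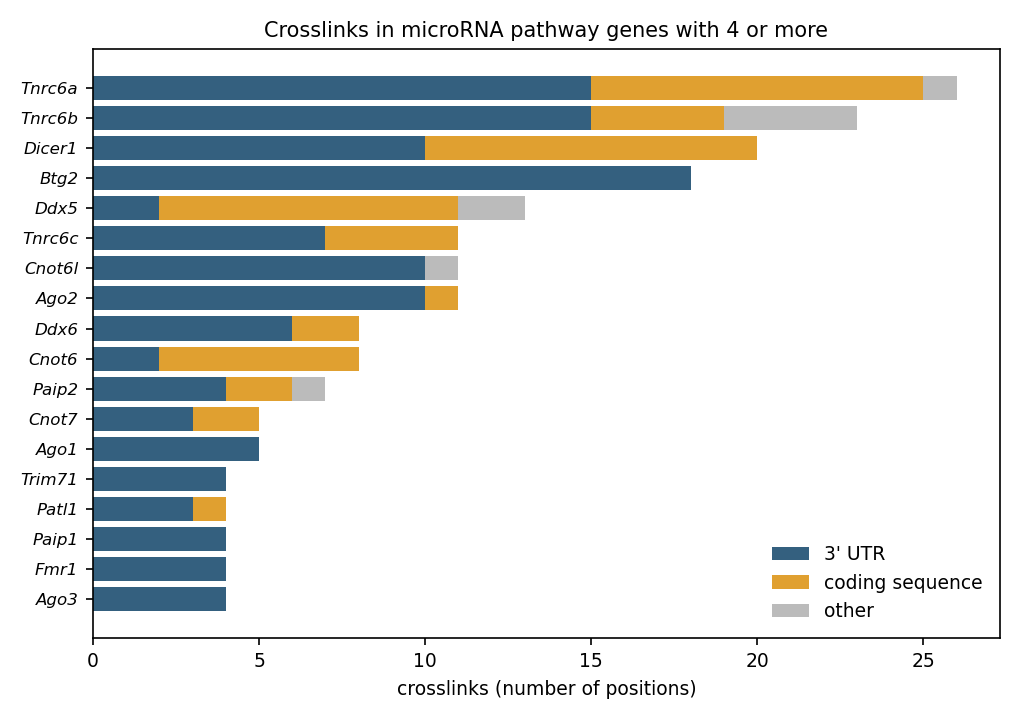
Number of crosslink positions in the Tnrc6 genes and in the listed microRNA pathway genes with at least 4, split into 3′ UTR, coding sequence and other. Tnrc6a (26) and Tnrc6b (23) stand above Dicer1 (20) and Btg2 (18), and Tnrc6c (11) is level with Ago2 and Cnot6l.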

How the data were processed

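The tables used were deposited by the authors, 1 of crosslink positions and 1 of miR-216 sites. Their score is, per the file headers of the crosslink table, the number of samples that contain the crosslink; the miR-216 table has no header, and its score was read the same way. Both pool the 5 Argonaute libraries. STAR, bedtools, CASAVA 1.8.2 and mm10 appear in the submitters' processing notes; how the crosslinks were called is not given in the sources used here. Depth per library is unknown.

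Positions were classed on the same strand with GENCODE M21 with 3′ UTR taken before coding sequence, then 5′ UTR, noncoding exons and introns, and with transcripts marked for decay taken as noncoding. Seed matches were read in spliced transcript sequence, and positions per kb used the principal transcript (minimum 100 nt). Seeds came from RefSeq mature microRNAs; 34 of 37 families matched. Proteins translated from the coding sequences were aligned with MAFFT 7.526. Other steps used Python 3.11.15, NumPy 2.4.6, SciPy 1.17.1 and matplotlib 3.10.9. Match calling and coordinates were tested on simulated data. Shares have exact Clopper-Pearson 95% intervals.

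The genes, lists and families were chosen with earlier results of these data known. Named genes are the 3 members, the pathway gene with the most crosslinks in each group, pathway genes with a miR-216 site, and the 3 genes nearest to each member by distance. Kdr and Pdgfra, Ago1, the positions described as recurrent without a listed match, and the families of the shared row were chosen after their values were seen. Alternatives changed the class order, merging of positions, score minimum, length, match type, match window and distances.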

Additional observations from a re-analysis of the deposited data

How the results depend on the processing

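Of 54 recomputed values, 41 stayed within the 95% interval of a share or density or within 1.5 times a count, and 13 did not. The intervals of the densities are not given here. The intervals are wide, so a value inside them may still differ by over 1.5 times. With positions in 3 or more libraries only, 3′ UTR counts were 6, 4 and 2 for Tnrc6a, Tnrc6b and Tnrc6c and coding counts were 1, 2 and 2, so that Tnrc6a went from the most coding positions to the fewest. The shares followed by a listed match were then 57.1%, 37.5% and 50%, beside 32%, 22.7% and 18.2%; the smaller counts follow from using fewer positions. Over all alternatives this share ran from 16% to 57.1% in Tnrc6a, 13.6% to 37.5% in Tnrc6b and 0% to 50% in Tnrc6c. At 4 or more libraries the share of recurrent positions was 3.85% in Tnrc6a and 17.4% in Tnrc6b, beside 26.9% and 34.8%. In Tnrc6c the share followed by a match was 0 for matches starting 1 to 2 nt after the crosslink and 0 for 8mers only, since both of its matches are 7mers that start at the crosslink. With a crosslink counted within 20 nt of a match, 8, 5 and 5 matches of the 3′ UTRs of Tnrc6a, Tnrc6b and Tnrc6c had one. The search over all mature arms was chosen after seeing the data. No paired analysis was possible because the tables pool the libraries and hold no value of a single library, which also meant that leaving out 1 library at a time was not possible. With 11 to 26 positions in a gene precision is low, and a site missing from the table may still be bound.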
